A study of Mus musculus with 6 samples.

Results

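The Ifit genes encode interferon-induced proteins with tetratricopeptide repeats. Of the 22800 gene symbols in the expression table, 5 are described here: Ifit1, Ifit1bl1, Ifit2, Ifit3 and Ifit3b. They were taken by symbol, all 5 were found, and they had been chosen by their measured difference between sulfatide and vehicle in these same libraries. Cells of bronchoalveolar lavage fluid, washed out of the air spaces with saline, were profiled by RNA sequencing in 3 libraries from mice that received 20 µg of sulfatide by intraperitoneal injection (replicates 1, 2 and 3) and 3 libraries from mice that received vehicle (replicates 2, 3 and 4). Sulfatide is a sulfated glycolipid that CD1d presents to type II natural killer T cells, and the series is titled as a study of lung ischemia-reperfusion injury. The sources used here give neither strain, age and genotype nor the interval from injection to lavage, and they leave unsaid if the lungs had been ischemic. Nothing in the labels states that each library is a separate animal, so p-values measure the spread between these libraries only, and that spread may be technical.

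Type I interferons signal through their receptor to a complex that holds Stat2 and Irf9, which enters the nucleus and switches on genes with a matching element in their promoters. The Ifit genes are among the most strongly induced of these genes, in macrophages as in other cells, and Irf3 can also switch them on directly after a nucleic acid sensor has fired. The proteins bind RNA: Ifit1 holds the 5′ end of messages whose cap lacks methylation of its first nucleotide and keeps them from being translated, Ifit2 binds RNA rich in adenine and uracil, and Ifit3 in human cells stabilises the complex with IFIT1. Mouse Ifit3b is a duplicate of Ifit3, and Ifit1bl1 is named for its likeness to a copy of Ifit1.

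All 5 genes lie in 1 cluster on chromosome 19, with Ifit1bl2, a related gene that is no member, between Ifit3b and Ifit1. In RefSeq's annotation of GRCm38.p6, which is the sequence of the mm10 build that the submitters' processing notes name, Ifit2 lies at chr19:34550550-34576534, Ifit3 at chr19:34583119-34588982, Ifit1bl1 at chr19:34592888-34662981, Ifit3b at chr19:34607530-34613403 and Ifit1 at chr19:34640889-34650009. Ifit1bl1 is read from the minus strand and the other 4 members from the plus strand. The RefSeq extent of Ifit1bl1 covers Ifit3b and Ifit1, but the GENCODE M21 transcripts compared here shared 0 exon bases between any pair of family genes. The libraries kept strand, per the labels' protocols, and whether counting used it is not given in the sources used here.

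Interferon acts on its target genes through a known promoter element, and the promoters of the members that hold its core are shown so that they can be compared. The core was searched as TTTC, any 2 bases and TTTC again, on both strands, in windows running from 250 bases before to 50 bases after each RefSeq start in GRCm38.p6. Of all 32851 such windows, 3.44% held at least 1 match (3.99% of 27025 genes), as did 4 of the 5 members, Ifit2 being the exception in both of its windows. Of 17 other interferon-induced genes that act on RNA, from a list described further on, 7 held a match (41.2%). Ifit1, Ifit3 and Ifit3b each held 2 matches, a number reached by 0.225% of all windows. The 200 bases before the start are printed 5′ to 3′ with the matches in capitals, for Ifit1 (chr19:34640689-34640888, plus strand), Ifit3 (chr19:34583329-34583528, plus strand), Ifit3b (chr19:34607757-34607956, plus strand) and 1 of the 2 listed starts of Ifit1bl1 (chr19:34601969-34602168, minus strand).
Ifit1: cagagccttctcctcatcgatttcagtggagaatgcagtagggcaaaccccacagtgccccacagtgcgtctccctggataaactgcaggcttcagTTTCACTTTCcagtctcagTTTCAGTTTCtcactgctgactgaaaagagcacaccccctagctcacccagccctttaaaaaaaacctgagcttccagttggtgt
Ifit3: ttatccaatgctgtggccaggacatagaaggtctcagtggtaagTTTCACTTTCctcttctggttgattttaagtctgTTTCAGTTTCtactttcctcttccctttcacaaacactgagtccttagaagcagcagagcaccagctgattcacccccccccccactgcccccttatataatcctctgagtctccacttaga
Ifit3b: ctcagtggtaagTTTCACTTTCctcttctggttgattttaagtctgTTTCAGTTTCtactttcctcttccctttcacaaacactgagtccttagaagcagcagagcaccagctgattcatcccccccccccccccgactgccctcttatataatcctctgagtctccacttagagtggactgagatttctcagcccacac
Ifit1bl1: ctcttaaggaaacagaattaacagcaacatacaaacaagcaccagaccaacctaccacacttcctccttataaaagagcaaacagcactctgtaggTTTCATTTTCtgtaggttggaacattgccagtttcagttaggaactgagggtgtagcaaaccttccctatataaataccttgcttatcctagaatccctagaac

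Ifit1, Ifit3 and Ifit3b carried the same matched pair, TTTCACTTTC and then TTTCAGTTTC. The pair began 19 bases apart in Ifit1 and 34 bases apart in Ifit3 and Ifit3b. The Ifit3 and Ifit3b windows were 99.2% identical over 260 aligned bases. Ifit1bl1 held a single match, TTTCATTTTC, in each of its 2 windows. The pair before Ifit1 also falls in a window of Ifit1bl2, which is read from the minus strand, where it reads as GAAACTGAAA and GAAAGTGAAA. A match is a description of the letters in the window and was not tested as a binding site.

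Each of the 5 genes had lower levels in every sulfatide library than in any vehicle library, with folds of group means between 6.09 and 15.7. Of all genes tested, 18.3% were likewise separate with each sulfatide library lower. Levels are FPKM, fragments scaled to transcript length and library total, so that genes can be compared with each other within a library. Log2 fold changes (sulfatide minus vehicle) were taken on log2(FPKM + 1), with standard errors from a limma model of the 10405 genes at or above 1 FPKM in 3 or more libraries. The 5 members passed that filter with 1.54 FPKM or more in each of the 6 libraries. By an adjusted p below 0.05, 10.4% of all genes tested were lower in sulfatide and 5 of 5 members were, a count that the choice of members fixes and that supports nothing. The members' values are therefore given as a description, with no test.

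Ifit1, the cap-binding member, was the most abundant. It was at 62.15, 67.32 and 89.99 FPKM in sulfatide replicates 1, 2 and 3, and at 569.67, 306.97 and 460.09 FPKM in vehicle replicates 2, 3 and 4. The groups were separate, and the lowest vehicle library was 3.41 times the highest sulfatide library. Group means were 73.2 ± 14.8 FPKM in sulfatide and 446 ± 132 FPKM in vehicle (SD, n = 3 each), 6.09-fold lower in sulfatide (log2 fold change -2.56 ± 0.22).

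Ifit3 showed a wider gap. Its level was 18.92, 22.29 and 25.03 FPKM in sulfatide replicates 1, 2 and 3, and 434.06, 160.78 and 327.11 FPKM in vehicle replicates 2, 3 and 4. The vehicle libraries were spread over 2.70-fold and the sulfatide libraries over 1.32-fold, with no overlap. Means were 22.1 ± 3.06 FPKM in sulfatide and 307 ± 138 FPKM in vehicle (SD, n = 3 each), 13.9-fold lower in sulfatide (log2 fold change -3.63 ± 0.30).

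Its duplicate Ifit3b was less abundant in each library and had a similar pattern. It was at 1.82, 2.08 and 2.22 FPKM in sulfatide replicates 1, 2 and 3, and at 48.49, 16.80 and 30.65 FPKM in vehicle replicates 2, 3 and 4. The groups again did not overlap, and vehicle replicate 3 was again the lowest of its group. Means were 2.04 ± 0.203 FPKM in sulfatide and 31.98 ± 15.9 FPKM in vehicle (SD, n = 3 each), 15.7-fold lower in sulfatide. Its log2 fold change of -3.32 ± 0.30 is smaller than that of Ifit3 although its ratio of means is larger, because the added pseudocount of 1 weighs on a gene near 2 FPKM, and with a pseudocount of 0.1 the values were -3.78 for Ifit3b and -3.69 for Ifit3.

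Ifit2 was the steadiest member among sulfatide libraries. It was at 12.50, 11.49 and 12.60 FPKM in sulfatide replicates 1, 2 and 3, and at 193.19, 78.94 and 130.17 FPKM in vehicle replicates 2, 3 and 4. The sulfatide libraries lay within 1.10-fold of each other and the vehicle libraries within 2.45-fold. Means were 12.2 ± 0.614 FPKM in sulfatide and 134 ± 57.2 FPKM in vehicle (SD, n = 3 each), 10.99-fold lower in sulfatide (log2 fold change -3.26 ± 0.26).

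Ifit1bl1 was the least abundant member in vehicle libraries. It was at 1.68, 2.22 and 1.54 FPKM in sulfatide replicates 1, 2 and 3, and at 21.57, 8.74 and 14.02 FPKM in vehicle replicates 2, 3 and 4. The groups were separate by 3.94-fold between the nearest libraries. Means were 1.81 ± 0.359 FPKM in sulfatide and 14.8 ± 6.45 FPKM in vehicle (SD, n = 3 each), 8.15-fold lower in sulfatide (log2 fold change -2.41 ± 0.26, and -2.88 with a pseudocount of 0.1). The sixth gene of the cluster, Ifit1bl2, is no member and was below the level for testing, at 0.15 ± 0.135 FPKM in sulfatide, with 0 listed in replicate 3, and 0.66 ± 0.208 FPKM in vehicle (SD, n = 3 each).

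**Figure D1:**
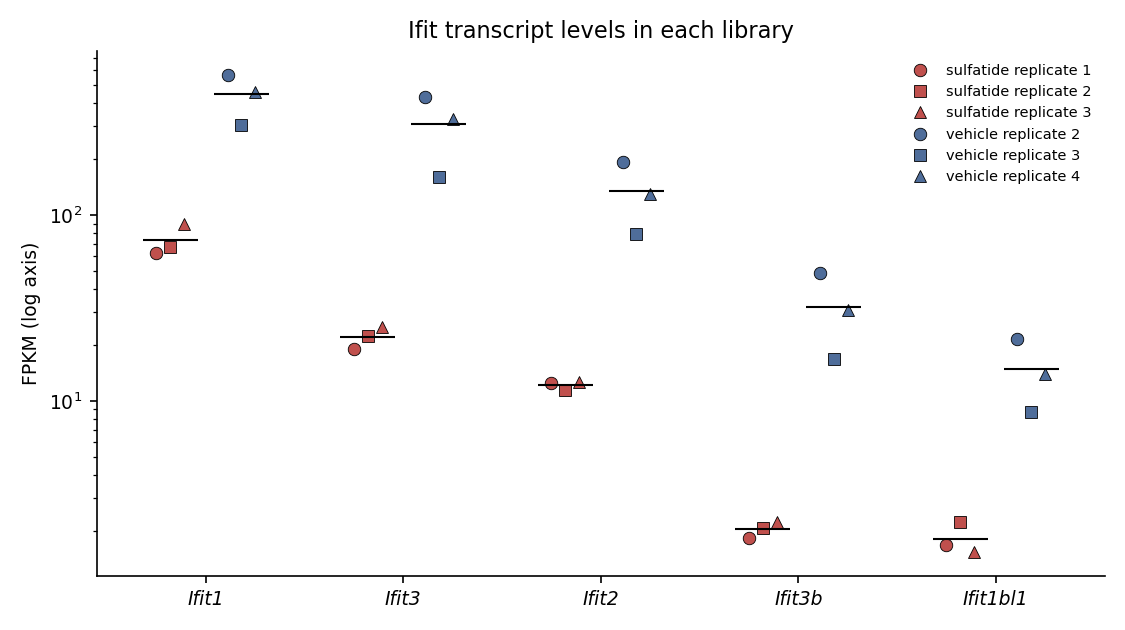
FPKM of the 5 Ifit genes on a log axis, with 1 point per library, sulfatide to the left of vehicle for each gene, and a bar at the mean of 3 libraries. Each gene is separate between the groups, and vehicle replicate 3 is the lowest vehicle library for each gene.

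The median log2 fold change of the members was -3.26, beside 0.04 over all genes tested. Summed over the 5 genes, the level was 97.1 to 131 FPKM in sulfatide libraries and 572 to 1267 FPKM in vehicle libraries. That is 0.00900 ± 0.00144% of the summed FPKM in sulfatide and 0.0819 ± 0.0314% in vehicle (SD, n = 3 each). Ranked by level among the 22800 genes of a library, Ifit1 stood at place 1782 to 2480 in sulfatide libraries and 344 to 639 in vehicle libraries. Ifit3 stood at place 4251 to 5088 in sulfatide libraries and 443 to 1162 in vehicle libraries. In bulk samples, fewer cells that express these genes and less RNA per cell cannot be told apart.

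The order of levels was Ifit1, Ifit3, Ifit2, Ifit3b and Ifit1bl1 in each vehicle library. The same order held in sulfatide replicates 1 and 3, while Ifit1bl1 was above Ifit3b in sulfatide replicate 2. Those 2 genes thus had no fixed order in sulfatide libraries. Ifit1 was above Ifit3 in each of the 3 vehicle libraries, by 1.31-fold to 1.91-fold within a library. The ranges of Ifit1 and Ifit3 across vehicle libraries overlapped, and the difference between them was not tested.

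The make-up of the total differed between the groups. Ifit1 made up 63.9 to 68.5% of the summed Ifit FPKM in sulfatide libraries and 45.0 to 53.6% in vehicle libraries. Ifit3 made up 19.1 to 21.1% in sulfatide libraries and 28.1 to 34.3% in vehicle libraries. The ratio of Ifit1 to Ifit3 was therefore 3.02 to 3.60 in sulfatide libraries and 1.31 to 1.91 in vehicle libraries, with no overlap. Among the vehicle libraries, replicate 3, which had the lowest Ifit total, also had the highest share of Ifit1. The ratio of Ifit3 to Ifit3b overlapped between the groups, at 10.4 to 11.3 in sulfatide libraries and 8.95 to 10.7 in vehicle libraries. These ratios come from the contrast that chose the members and were not tested.

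**Figure D2:**
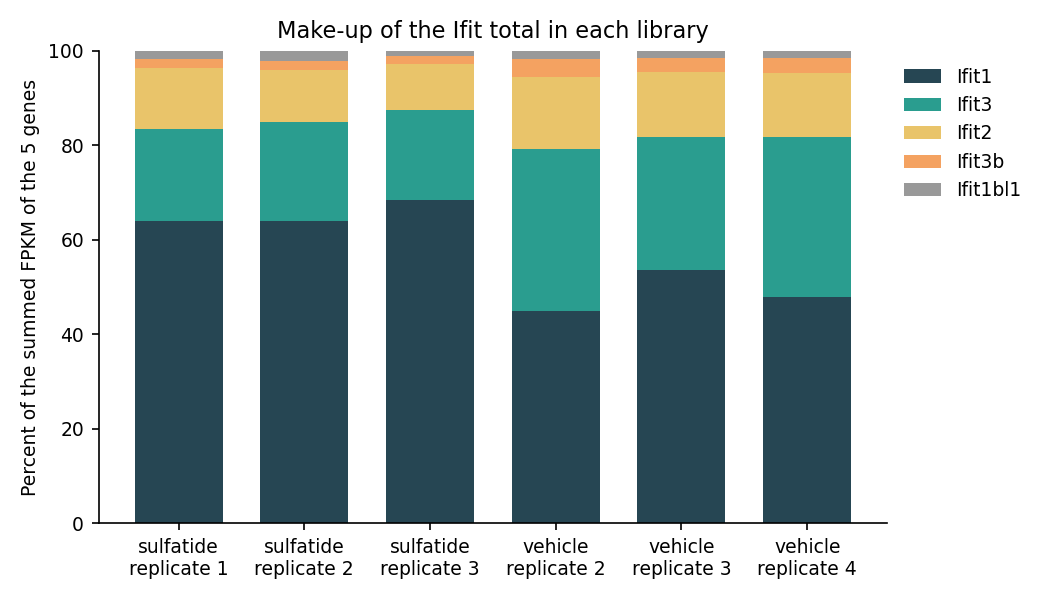
Percent of the summed FPKM of the 5 Ifit genes taken by each gene, with 1 stacked bar per library and sulfatide libraries on the left. The Ifit1 part is larger in the 3 sulfatide libraries (63.9 to 68.5%) than in the 3 vehicle libraries (45.0 to 53.6%).

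The split between Ifit3 and Ifit3b is uncertain. In GENCODE M21 both have a coding length of 1209 bases, and the 2 coding sequences were 99.1% identical. Of the 150-base stretches of the Ifit3 transcript, the read length per the labels' protocols, 18.5% occur letter for letter in Ifit3b, and 16.0% of those of Ifit3b occur in Ifit3. How fragments that match several genes were assigned is not given in the sources used here. Gapdh is a glycolytic gene with many processed copies in the mouse genome. It was at 73.43, 15.34 and 19.75 FPKM in sulfatide replicates 1, 2 and 3 and at 20.3 ± 2.59 FPKM in vehicle. Sulfatide replicate 1 thus carried the difference (log2 fold change 0.47, and -0.20 without it). Pgk1 of the same pathway was at 2209 ± 188 FPKM in sulfatide and 1949 ± 87.7 FPKM in vehicle (SD, n = 3 each). Whether the copies bear on the level of Gapdh was not tested. Summing the FPKM of Ifit3 and Ifit3b lessens the weight of the split. It does not remove it, since FPKM is scaled to each gene's length and the assignment of shared fragments is unknown. The sum was 20.74, 24.37 and 27.25 FPKM in sulfatide replicates 1, 2 and 3, and 482.55, 177.58 and 357.76 FPKM in vehicle replicates 2, 3 and 4. The sum was 14.1-fold lower in sulfatide by the ratio of means (log2 fold change -3.65 ± 0.30). Ifit1 and Ifit1bl1 were less alike (78.6% identity of coding bases), and 0 of the 150-base stretches of either occurred in the other.

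The members differed among vehicle libraries in the same direction. Each of the 5 was highest in vehicle replicate 2 and lowest in vehicle replicate 3, by 1.86-fold for Ifit1 and by 2.45-fold to 2.89-fold for the other 4. By the difference between these libraries in log2(FPKM + 1), Ifit3b ranked 5th, Ifit3 8th, Ifit2 14th, Ifit1bl1 18th and Ifit1 52nd of 10405 genes. The median gene differed by -0.08, and 34.0% of genes were higher in vehicle replicate 2. After the group means were removed, Pearson correlations of the 10 pairs of members over 6 libraries were 0.731 to 0.984, the lowest being that of Ifit1 and Ifit1bl1. Sulfatide libraries differed by only 1.10-fold to 1.45-fold for each member, so the vehicle libraries weigh more in these correlations. The correlations share the libraries and carry no test. Among sulfatide libraries, replicate 3 was the highest for Ifit1, Ifit2, Ifit3 and Ifit3b and the lowest for Ifit1bl1.

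The genes with the pattern most like the members' mean were named from 8172 other tested genes with at least 5 FPKM in the higher group, by Pearson r of log2(FPKM + 1) over the 6 libraries. They were Gbp6 (r = 0.9993), Trim30a (0.9993), Ms4a4c (0.9990), Slfn8 (0.9989), Parp11 (0.9983) and Tor1aip1 (0.9983). Of the 8172 genes, 161 had r above 0.98. With the group means removed, r was 0.976 to 0.999 for the 6 genes. They were chosen by r over these same libraries, so these values carry no test. Ms4a4c was at 29.1 ± 1.98 FPKM in sulfatide and 195 ± 60.1 FPKM in vehicle, 6.70-fold lower in sulfatide. Tor1aip1 had a smaller difference, at 75.01 ± 2.85 FPKM in sulfatide and 122 ± 12.8 FPKM in vehicle (SD, n = 3 each), 1.63-fold lower in sulfatide.

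The pathway that induces the Ifit genes was examined as 20 genes of interferon production, receptor and signalling, of which 15 were tested. By limma with Benjamini-Hochberg adjustment over all genes, 9 fell in sulfatide and 0 rose (9 lower and 0 higher at an unadjusted p below 0.05), against 10.4% and 8.31% of all genes, and the median log2 fold change was -0.58. Among ligands, Ifnb1 (interferon beta) was at 0.287 ± 0.147 FPKM in sulfatide and 0.283 ± 0.14 FPKM in vehicle (SD, n = 3 each), below the level for testing, and Ifna1, Ifna2, Ifna4 and Ifna5 were listed at 0 in each library. The receptor chains did not pass, with 91.5 ± 13.9 FPKM in sulfatide and 104 ± 12.3 FPKM in vehicle for Ifnar1 (adjusted p = 0.352), and 149 ± 6.73 FPKM in sulfatide and 142 ± 9.61 FPKM in vehicle for Ifnar2 (adjusted p = 0.569).

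Stat2 and Irf9 belong to the complex that induces the Ifit genes. Stat2 fell 3.03-fold, to 24.7 ± 1.69 FPKM in sulfatide against 75.0 ± 21.2 FPKM in vehicle (-1.52 ± 0.18, limma adjusted p = 0.000643). Irf9 was 1.23-fold lower (-0.30 ± 0.09, limma adjusted p = 0.0416), a call lost without any 1 library other than vehicle replicate 3 (adjusted p of 0.0589 to 0.148). Irf7, which amplifies interferon production and is itself induced by interferon, fell 4.16-fold, to 116 ± 13.5 FPKM in sulfatide against 482 ± 122 FPKM in vehicle (-2.02 ± 0.18, limma adjusted p = 0.000143). Irf3 was at 56.9 ± 4.41 FPKM in sulfatide and 54.2 ± 0.799 FPKM in vehicle (limma adjusted p = 0.633). Of the 3 inhibitors of the pathway in the list, Usp18 fell 4.80-fold and Socs1 fell 3.30-fold (limma adjusted p = 4.62e-05 and 5.85e-05), while Ptpn6 was at 451 ± 20.1 FPKM in sulfatide and 437 ± 8.09 FPKM in vehicle (limma adjusted p = 0.697). Also lower were the receptor kinase Tyk2 by 1.66-fold and the transcription factors Irf1 by 1.64-fold and Irf5 (log2 fold change -0.58). The Irf1 call was lost without vehicle replicate 2 (adjusted p = 0.0671).

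Of 18 nucleic acid sensors and adaptors, which can trigger the pathway, 13 fell and 1 rose, with a median log2 fold change of -0.61, while 10.4% of all genes fell and 8.31% rose. The RNA sensors Ifih1 (2.80-fold), Ddx58 (3.45-fold) and Dhx58 (2.58-fold) and the nucleic acid sensor Zbp1 (3.01-fold) fell, with limma adjusted p of 0.000114 to 0.00036. All of these are themselves induced by interferon. Sting1, the adaptor of DNA sensing, was the gene that rose, to 26.97 ± 2.85 FPKM in sulfatide against 13.9 ± 0.916 FPKM in vehicle (1.94-fold, limma adjusted p = 0.000636). Mavs, the adaptor of the RNA sensors, was at 15.6 ± 1.47 FPKM in sulfatide and 15.3 ± 0.447 FPKM in vehicle (limma adjusted p = 0.903).

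Of 20 other interferon-induced proteins that act on RNA, 19 were tested, and by limma 17 fell and 0 rose (17 lower and 0 higher at an unadjusted p below 0.05), with a median log2 fold change of -1.31. By the same test 10.4% of all genes fell and 8.31% rose. Rsad2, which makes a chain-terminating nucleotide, fell 12.7-fold, and the oligoadenylate synthetase family genes Oas3, Oasl1 and Oasl2 fell 5.41-fold, 6.92-fold and 3.02-fold (limma adjusted p of 5.2e-05 to 0.000152). N4bp1 did not pass (limma adjusted p = 0.292). Of this list, 19 of 19 tested genes were higher in vehicle replicate 2 than in vehicle replicate 3, as the Ifit genes were, against 34.0% of all genes tested.

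Ifit1 acts at the message's cap, so the genes that make, read and remove it were taken as a list. Of 17 genes for cap methylation and other enzymes of the message's 5′ end, 2 fell and 2 rose, with a median log2 fold change of 0.06, while 10.4% of all genes fell and 8.31% rose. Cmtr1, the methyltransferase whose mark on the cap keeps Ifit1 from binding and which is itself interferon-induced, fell 1.90-fold, to 40.6 ± 2.79 FPKM in sulfatide against 77.2 ± 10.8 FPKM in vehicle (-0.90 ± 0.12, limma adjusted p = 0.000919). The decapping enzyme Dcp2 fell 1.71-fold (limma adjusted p = 0.00202). The cap-binding genes Ncbp2 (1.37-fold) and Ncbp1 (1.29-fold) rose, at limma adjusted p of 0.0172 and 0.0334. Neither rise was called without sulfatide replicate 1 or 3 or vehicle replicate 2 or 4 (adjusted p of 0.0547 to 0.123), and that of Ncbp1 was also lost without sulfatide replicate 2 (0.0597) and after rescaling to TPM (0.0834).

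Ifit proteins are known to bind the initiation factor eIF3. Of its 14 subunit genes, 0 fell and 1 rose by limma (1 lower and 4 higher at an unadjusted p below 0.05), with a median log2 fold change of 0.16. The share that rose was near that of all genes tested, of which 10.4% fell and 8.31% rose. The subunit that rose was Eif3k (1.26-fold, limma adjusted p = 0.0416), and it stayed called without vehicle replicate 3 but not without any other single library (adjusted p of 0.0504 to 0.149) nor after rescaling to TPM (0.101). Eif3c was at 238 ± 12.3 FPKM in sulfatide and 245 ± 4.06 FPKM in vehicle (limma adjusted p = 0.743), and Eif3e at 211 ± 9.75 FPKM in sulfatide and 188 ± 21.8 FPKM in vehicle (limma adjusted p = 0.253). Of 12 common reference genes 0 fell by limma (2 lower at an unadjusted p below 0.05) and 2 rose, beside 10.4% and 8.31% of all genes. Of the 2 that rose, 0 were called after rescaling to TPM. Hprt rose 1.26-fold (limma adjusted p = 0.0365), a call lost after rescaling to TPM (0.0864) and without any 1 library other than vehicle replicate 3 (0.051 to 0.127).

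**Figure D3:**
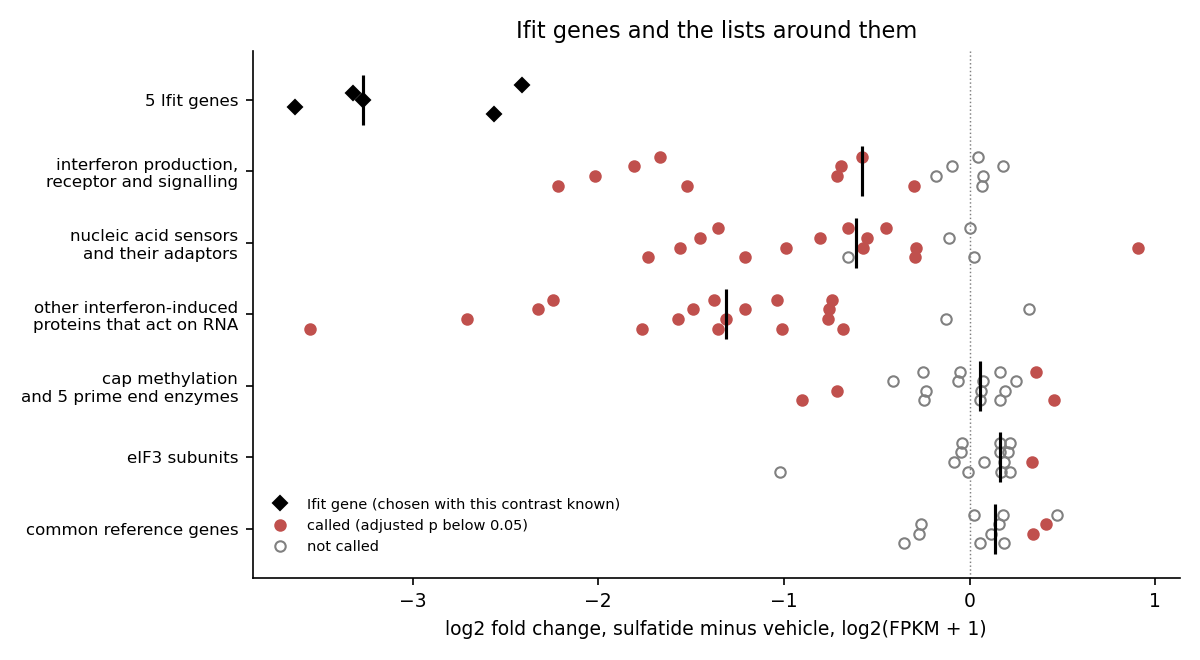
Log2 fold change (sulfatide minus vehicle, from log2 of FPKM + 1) of the 5 Ifit genes and the tested genes of 6 lists, with 1 point per gene, filled where the limma adjusted p was below 0.05, and a bar at each median. The Ifit genes lie between -3.63 and -2.41, and the list medians between -1.31 and 0.16.

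Within 500 kb of the members, RefSeq places 12 other protein-coding genes, of which 8 were tested. Of these 8, 3 fell and 2 rose, while 10.4% of all genes tested fell and 8.31% rose, and their median log2 fold change was -0.11. Ch25h, which makes the antiviral oxysterol and is itself interferon-induced, lies at chr19:34473783-34475148 and fell 5.18-fold, to 6.85 ± 0.673 FPKM in sulfatide against 35.4 ± 10.8 FPKM in vehicle (-2.18 ± 0.19, limma adjusted p = 0.000132). Between Ch25h and the cluster, Lipa, the lysosomal acid lipase gene (chr19:34492316-34527474), was at 164 ± 37.9 FPKM in sulfatide and 204 ± 17.7 FPKM in vehicle (limma adjusted p = 0.151, and 0.0149 without sulfatide replicate 2). Farther out on that side, the death receptor gene Fas fell 1.49-fold (limma adjusted p = 0.00305) and Lipn 1.94-fold (0.0158, and 0.0562 and 0.0761 without sulfatide replicate 1 and vehicle replicate 2). Levels of Lipn were low, at 1.47 ± 0.269 FPKM in sulfatide and 2.85 ± 0.427 FPKM in vehicle (log2 fold change -0.64). Stambpl1 and the actin gene Acta2 did not pass (limma adjusted p = 0.412 and 0.342).

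On the other side of the cluster, Slc16a12 was listed at 0 in each library. Pank1, a pantothenate kinase, rose 1.95-fold by the ratio of means, but at low levels. It was at 2.56 ± 0.256 FPKM in sulfatide and 1.32 ± 0.152 FPKM in vehicle (SD, n = 3 each). Its log2 fold change was 0.62 (limma adjusted p = 0.00979, and 0.0504 without vehicle replicate 2). The kinesin gene Kif20b rose 2.07-fold (limma adjusted p = 0.0388). The Kif20b call was lost without sulfatide replicate 1 or 2 or vehicle replicate 2 or 4 (adjusted p of 0.0786 to 0.115) and after rescaling to TPM (0.0516).

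**Figure D4:**
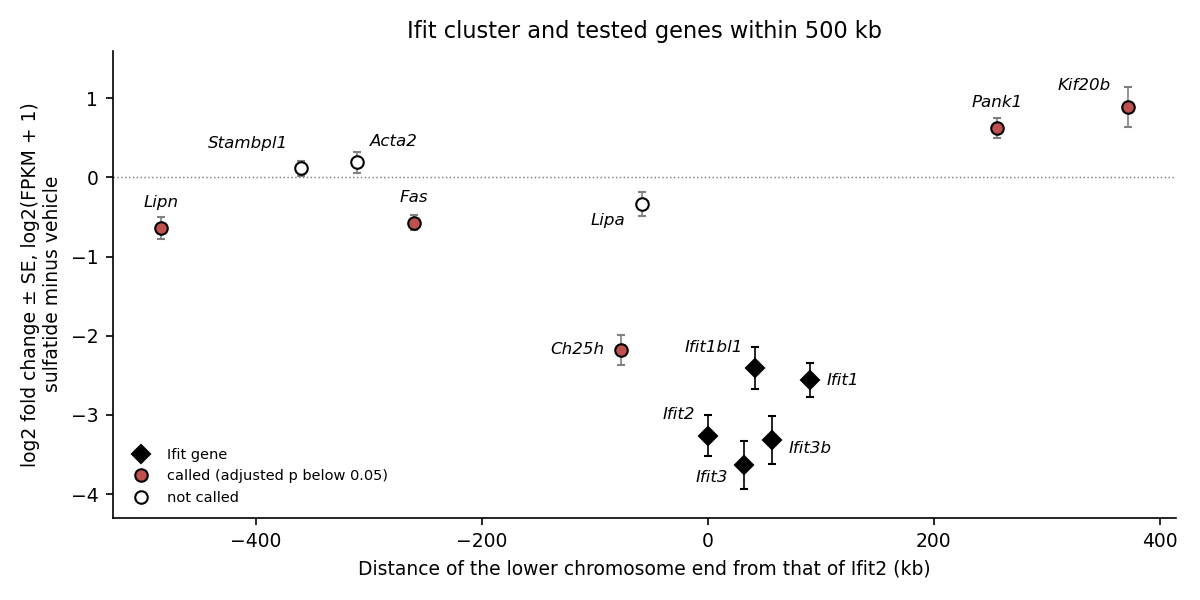
Log2 fold change ± SE of sulfatide minus vehicle against distance in kb from Ifit2, for the 5 Ifit genes (diamonds) and the 8 tested genes within 500 kb (circles, filled where the limma adjusted p was below 0.05). Ch25h lies at -2.18, beside Lipa at -0.33 and the Ifit genes at -3.63 to -2.41.

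General macrophage markers summed to 27186 to 38441 FPKM in sulfatide libraries and 29756 to 34486 FPKM in vehicle libraries, most of it Lyz2, and by limma 0 of 8 passed (3 at an unadjusted p below 0.05). The 10 markers of resident alveolar macrophages summed to 110 to 260 FPKM in sulfatide libraries and 125 to 170 FPKM in vehicle libraries, and by limma 0 of the 5 tested passed (0 at an unadjusted p below 0.05). Marco (103 ± 68.7 FPKM in sulfatide, 93.1 ± 11.5 FPKM in vehicle), Chil3 and Fabp4 were the most abundant, while Fabp1 and Krt79 were listed at 0 and Siglecf, Car4 and Ear1 stayed under 1 FPKM in each library. The 8 neutrophil markers summed to 404 to 562 FPKM in sulfatide libraries and 132 to 181 FPKM in vehicle libraries, most of it S100a8, which rose to 419 ± 55.3 FPKM in sulfatide against 105 ± 11.7 FPKM in vehicle (limma adjusted p = 3.33e-05). Mmp8 also rose (limma adjusted p = 0.0439), a call lost without sulfatide replicate 2 or 3 or vehicle replicate 3 or 4 (0.0737 to 0.128) and after rescaling to TPM (0.0772). Camp had a log2 fold change of -0.45 (limma adjusted p = 0.0519) and S100a9 of -0.15 (0.804), and Ly6g, Cxcr2, Retnlg and Ltf were under 1 FPKM throughout. The 6 markers of plasmacytoid dendritic cells, which make much interferon, summed to 430 to 517 FPKM in sulfatide libraries and 1067 to 1249 FPKM in vehicle libraries. Most of that sum was Bst2, which interferon induces in many cells, while Siglech, Ccr9 and Ly6d stayed under 1 FPKM and Klk1 was listed at 0. The remaining marker, Tcf4, was at 8.16 ± 0.332 FPKM in sulfatide and 8.99 ± 1.30 FPKM in vehicle (limma adjusted p = 0.528). Markers of T, NKT and NK cells summed to 0.49 to 0.90 FPKM in sulfatide libraries and 0.64 to 1.01 FPKM in vehicle libraries, with Cd3e, Ncr1 and Zbtb16 listed at 0. The 7 monocyte markers summed to 51.1 to 55.6 FPKM in sulfatide libraries and 63.3 to 73.6 FPKM in vehicle libraries. Among them Cx3cr1 fell, to 22.6 ± 4.28 FPKM in sulfatide against 37.4 ± 2.79 FPKM in vehicle (limma adjusted p = 0.00661), Ccr2 was at 5.60 ± 1.33 FPKM in sulfatide and 3.84 ± 0.363 FPKM in vehicle (limma adjusted p = 0.0851), and Chil1, below the level for testing, was at 0.96 ± 0.452 FPKM in sulfatide and 0.02 ± 0.0346 FPKM in vehicle (SD, n = 3 each). Of the remaining lists, the dendritic cell marker Cd209a was at 1.19 to 2.59 FPKM in sulfatide libraries and listed at 0 in vehicle libraries. It passed the filter only through the sulfatide libraries, so its p is not given. The other dendritic cell markers, Flt3, Zbtb46, Clec9a, Itgae and Xcr1, were under 1 FPKM in each library, Xcr1 being listed at 0. The stromal marker Pdgfrb fell 3.45-fold (limma adjusted p = 0.000137). Col1a1 and Acta2 did not pass (log2 fold change -0.38 and 0.19, limma adjusted p = 0.149 and 0.342), and Pecam1 and Cdh5 were under 1 FPKM. The part of these cell types in the Ifit difference was not tested. FPKM summed to between 1217971 and 1249691 in sulfatide libraries and between 1126779 and 1168474 in vehicle libraries, and depth relative to vehicle replicate 2, estimated from ratios of low FPKM, was 0.849 to 1.20 in sulfatide libraries and 1.00 to 1.06 in vehicle libraries.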

How the data were processed

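Bronchoalveolar lavage cells of 6 libraries (3 sulfatide, 3 vehicle) were sequenced from poly(A)-selected, strand-specific libraries with 150-base paired reads, per the labels' protocols. The deposited values are FPKM per gene, given by the authors with 2 decimals and made on the mm10 build, per the submitters' processing notes. Aligner, counter, annotation and the handling of fragments that match several genes: not given in the sources used here. Of the value columns, 3 matched no sample and were not used. Groups came from the sample titles.

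Genes with at least 1 FPKM in at least 3 libraries were tested on log2(FPKM + 1) with limma 3.58.1 in R 4.3.3 (lmFit, eBayes with an intensity trend, 2-sided), with Benjamini-Hochberg adjustment over the 10405 genes and calls at an adjusted p below 0.05. The code was tested on simulated data. With no counts in the table, absolute depth is unknown and no counting interval is given. Since FPKM sums were higher in sulfatide libraries, rescaling to TPM moves fold changes downwards. Alternatives were other pseudocounts and filters, TPM, quantile normalization, the replicate number as a block, and each library left out.

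The members and lists were chosen with earlier results of these data known. Genes were named by a rule: the members, Ifit1bl2, 11 fixed pathway genes, up to 4 called genes of smallest p per list, tested neighbours within 500 kb, and the 6 genes most like the members. Named outside it, after their values were seen, were Tyk2, Irf1, Irf5, the Ifna genes, Sting1, Mavs, N4bp1, Ptpn6, Gapdh, Pgk1, Slc16a12 and the markers. Some genes that the rule names or the lists hold are not reported here. Promoters are RefSeq's for GRCm38.p6 and transcripts GENCODE M21's. Coding sequences were compared in place of the planned protein sequences.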

Additional observations from a re-analysis of the deposited data

How the results depend on the processing

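The 5 Ifit genes were lower in sulfatide under all 13 alternatives, and 5 of 5 were called in each, a direction that the choice of members fixes. Log2 fold changes were -2.81 to -2.36 for Ifit1, -2.88 to -2.11 for Ifit1bl1, -3.60 to -2.96 for Ifit2, -4.04 to -3.33 for Ifit3 and -3.78 to -2.97 for Ifit3b. The value of -2.88 for Ifit1bl1 came from the pseudocount of 0.1, which weighs less on low genes. The size of each fold is limited by 3 libraries a group and by vehicle libraries that differ by up to 2.89-fold.

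Over all genes, 1078 fell and 865 rose, 44.5% of calls being higher. Without a filter 522 rose, after rescaling to TPM 468 rose (23.6% of calls), and leaving out 1 library gave 603 to 1136 lower and 263 to 1420 higher genes, the extremes of the higher calls being without vehicle replicate 2 and without vehicle replicate 3. The higher calls also numbered 345 without sulfatide replicate 1, 439 without sulfatide replicate 3 and 422 without vehicle replicate 4, and the lower calls 683 without sulfatide replicate 3 and 603 without vehicle replicate 2. The split was 50.02% with quantile normalization. The median over all genes was 0.04, and -0.06 after rescaling to TPM. Without a filter the signalling median was -0.44. Under TPM, 4 cap genes fell and 1 rose, 0 eIF3 genes rose (median 0.0516), and 2 reference genes fell and 0 rose (median 0.0271). Without a filter 0 eIF3 genes and 1 reference gene rose, and with a filter at 5 FPKM 1 reference gene fell. Leaving out 1 library gave 0 to 3 higher cap genes, 0 to 1 lower and 0 to 2 higher eIF3 genes, and 0 to 2 lower and 0 to 2 higher reference genes. It also gave 7 to 9 lower signalling genes and 9 to 14 lower sensors and adaptors. The other interferon-induced genes that act on RNA stayed at 17 lower. The cause of these shifts was not tested.

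Replicate numbers 2 and 3 occur in both groups, and same-numbered libraries deviated with correlations of 0.156 and -0.303. The labels do not say that a number marks anything shared, so the numbers were not taken to pair the libraries. With that number as a replicate block, 635 genes fell and 297 rose, 8 sensors fell, 0 cap, 0 eIF3 and 0 reference genes rose, and the eIF3 and reference medians were 0.0625 and 0.0301. The block gave log2 fold changes of -2.41 for Ifit1, -2.37 for Ifit1bl1, -3.26 for Ifit2, -3.43 for Ifit3 and -3.24 for Ifit3b.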
